A study of Drosophila melanogaster with 4 samples.

Results

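The regions described here are the H3K4me3 peaks in the centromere-proximal 2 Mb of 4 chromosome arms of Drosophila melanogaster. They were chosen by position alone, as the peaks whose midpoint lay at 20970000 or above on 2L, at 22530000 or above on 3L, at 2000000 or below on 3R, or at 20420000 or above on X, in FlyBase release 5. On 2L the peaks between 21410000 and 21545000, a tandem run, were left out. This gave 325 peaks of 7743 in the list, 4.20% of all and 5.64% of the 5762 peaks of the same arms. The remaining 5411 peaks of these arms, without the 26 of the run, are called the rest of the arm below. Numbering starts at the centromeric end on 3R and at the telomeric end on 2L, 3L and X, so distances run from base 1 on 3R and from the end of the last peak on the other arms. The true distance to the centromere cannot be read from the list, and the stretches are named only for their place in the assembled arms.

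The list came from whole white prepupae, the motionless stage at which the larva begins metamorphosis, with 2 libraries precipitated with a rabbit polyclonal antibody to histone H3 trimethylated at lysine 4 and 2 libraries of input DNA. All animals were of the strain Y cn bw sp, per the labels, which carries y[1] with oc[R3.2] and, from the next group of alleles, Gr22b[1] with Gr22d[1] and cn[1], then CG33964[R4.2] beside bw[1] and sp[1]. The same animals carry LysC[1] and lab[R4.2] as well as MstProx[1], GstD5[1] and Rh6[1]. Every cell type of the animal is mixed in such material, so that a weak peak in many cells and a strong one in few cannot be told apart. The authors deposited 1 peak list for the series, with a position and a score from their peak caller for each peak and no value per library. The depth is therefore unknown, no replicate error exists, and no difference given here has a test. The intervals in parentheses are 95% intervals for counting over peaks only (exact Poisson for densities, Clopper-Pearson for shares, order statistics for medians). Neighbouring peaks are not independent, which these intervals leave out.

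Trimethylation of lysine 4 on histone H3 marks the start sites of active genes, where it is laid down by the Set1 and Trithorax family of methyltransferases. Near a fly centromere, gene-bearing chromatin passes into pericentric heterochromatin, which is rich in transposons and satellite repeats and carries methylated lysine 9 of histone H3 and the protein HP1. Genes within heterochromatin can be active and then carry H3K4me3 at their promoters, although many of them have very long introns. In release 5 much of the heterochromatin sits on separate sequences such as 3LHet, so the ends of the main arms cover the passage zone. No gene is named under a peak, because no annotation of release 5 was used here.

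The centromeric ends of the arms did not look alike. On 3L, X and 2L peaks were sparser in the proximal 2 Mb than in the rest of the arm, whereas on 3R they were denser. On 3L the 28 members gave 14.0 peaks per Mb (9.30 to 20.2), against 61.1 (57.9 to 64.4) in the rest of 3L, a ratio of 0.229. On X the 56 members gave 28.0 peaks per Mb (21.2 to 36.4), against 64.0 (60.6 to 67.6) in the rest, a ratio of 0.438. On 2L the 78 members gave 41.8 peaks per Mb (33.1 to 52.2), against 55.5 (52.4 to 58.8), a ratio of 0.754. With the tandem run kept, the 2L stretch held 52.0 peaks per Mb, and the ratio was 0.937. On 3R the 163 members, 50.2% of all 325, gave 81.5 peaks per Mb (69.5 to 95), against 60.4 (57.4 to 63.5), a ratio of 1.35. The 3 sparser stretches, without the left-out run, together held 162 peaks at 27.6 per Mb. The list thus puts about as many peaks into 2 Mb of 3R as into these 5.86 Mb of the other arms.

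**Figure D1:**
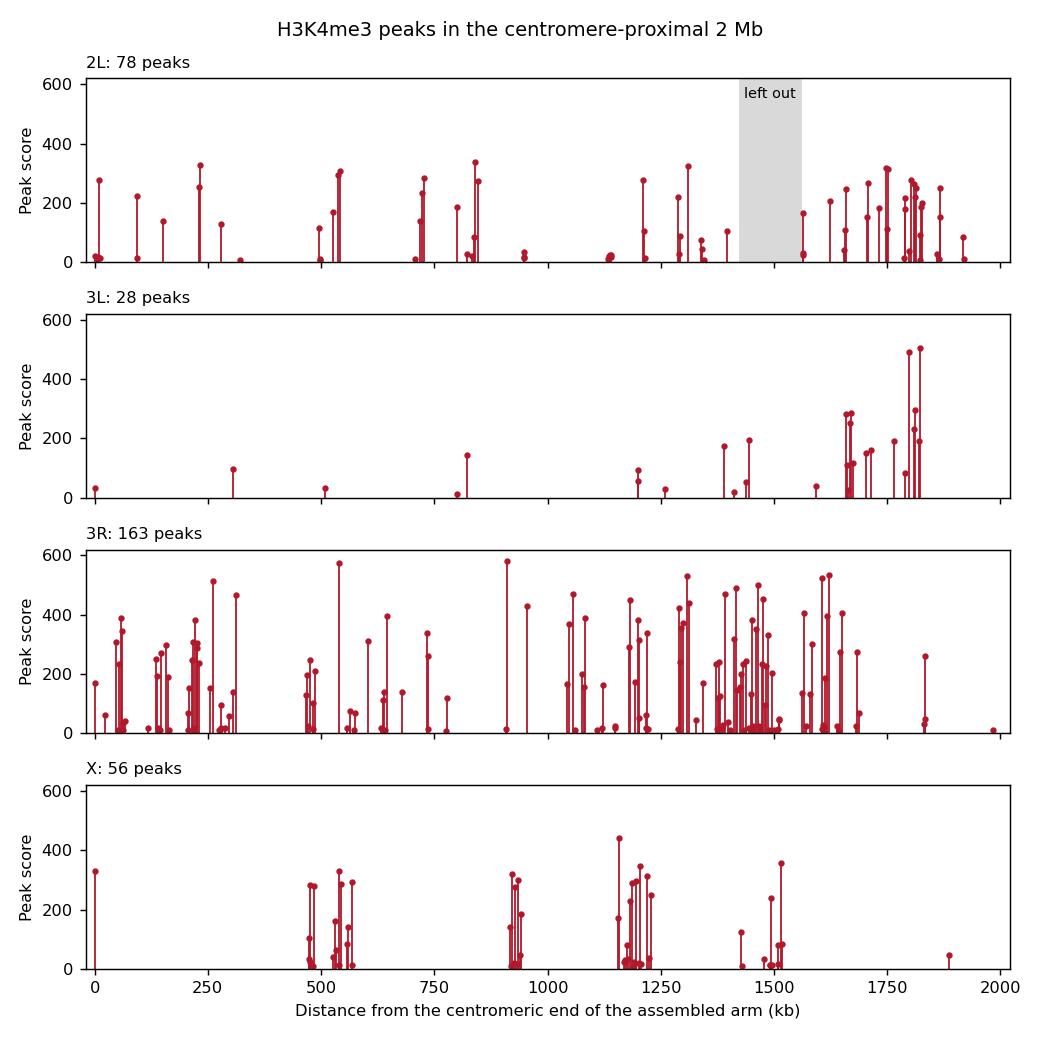
Every member as a vertical line at its distance from the centromeric end of the assembled arm (kb), with its score as the height, in a panel per arm. The grey band on 2L is the tandem run left out; 3R is filled along most of its length, X shows separate groups, and 3L holds most of its 28 peaks toward the far side.

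How unusual these densities were for each arm was described by cutting the rest of the arm into successive full 2 Mb steps, starting at the border. On 3L the members' 14.0 peaks per Mb lay below all 11 steps, which ran from 35.5 to 85.0 with a median of 60.5. On X the members' 28.0 also lay below all 10 steps, which ran from 37.0 to 90.5 with a median of 61.3. On 2L the members' 41.8 lay within the range of the 10 steps, 28.5 to 79.0 with a median of 56.5, and 3 steps were sparser. On 3R the members' 81.5 exceeded 11 of 12 steps, which ran from 38.5 to 90.5 with a median of 56.8. The sparse end of 3L and X was thus outside the spread of the steps on its own arm, whereas the density of 2L and 3R was reached elsewhere on the arm. The step next to the members held 38.5 peaks per Mb on 3R, the lowest of that arm, and 58.0 on 3L, 64.5 on X and 69.0 on 2L. With the border at 1 Mb in place of 2 Mb, 3R held 66.0 peaks per Mb, against 61.8 in the rest, and 3L 4.99, against 59.5. With the border at 3 Mb, 3L held 27 peaks per Mb, against 61.4, and X 44.4, against 63.3.

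**Figure D2:**
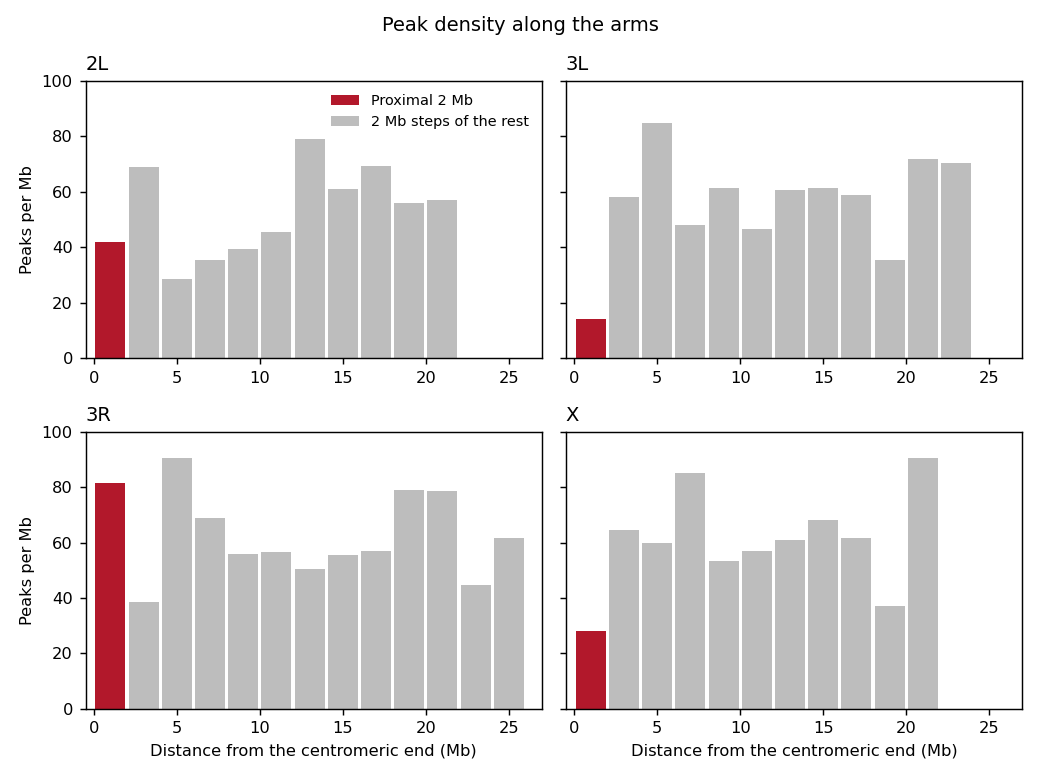
Peaks per Mb in the proximal 2 Mb (red) and in successive full 2 Mb steps of the rest of the arm (grey), against the distance from the centromeric end (Mb). The red bar is the lowest on 3L (14.0) and X (28.0), lies within the grey bars on 2L (41.8), and is the second highest on 3R (81.5).

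The share of sequence under peaks followed the same order. Members covered 14.4% of their span on 3R, against 10.7% in the rest. On 2L they covered 5.15%, against 9.50%, and on X 3.82%, against 10.3%. On 3L 2.12% of the span lay under peaks, against 10.1% in the rest, and none of the 11 steps of 3L was below 6.65%. In sequence terms, 42.5 kb of the 3L stretch carried the mark, compared with 287 kb of the 3R stretch. With the tandem run kept, 9.87% of the 2L stretch was covered, against 9.50%, and with the border at 1 Mb the ratio on 3R was 0.932 and that on 2L 0.356. With the border at 3 Mb the covered share was 4.30% on 3L, against 10.1%, and 7.41% on X, against 10.0%.

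With the chosen borders, the median score of members lay near that of the rest on each arm. The score is the authors' own value, whose scale is not named, and it was used only to rank and describe peaks within the list. The median score was 135 for the members on 3R (68.4 to 174), against 118 in the rest (98.7 to 133). On 3L it was 130 (56.5 to 192), against 115 (104 to 134), on 2L 106 (38.5 to 171), against 115 (101 to 135), and on X 81.1 (32.1 to 162), against 89.5 (73.7 to 103). In each case the interval of the members included the value of the rest, so that a difference in median score could not be made out over this number of peaks. With the tandem run kept, the median on 2L was 181, against 115, and with a border at 1 Mb that of the 5 peaks left on 3L was 33.6, against 116. Among the 2 Mb steps of each arm the median score ran over wider ranges, for instance from 57.8 to 173 on 3L, and the members lay inside these ranges on all 4 arms.

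Scores of 300 or more made up a smaller share of members than of the rest on 2L, 3L and X, and a larger one on 3R. No interval was computed for these shares, which rest on only 6, 2 and 7 members on 2L, 3L and X. On 2L 6 of 78 members (7.69%) reached a score of 300, against 19.7% of the rest. On X 7 of 56 members (12.5%) reached 300, against 18.8% of the rest, and on 3L 2 of 28 (7.14%) did so, against 17.8%. On 3R 40 of 163 members (24.5%) reached 300, against 19.4% of the rest. A score of 400 was reached by 11.0% of members on 3R, against 7.54% of the rest, by 1.79% on X, against 6.12%, by 0 of 78 on 2L, against 7.73%, and by 2 of 28 on 3L (7.14%), against 5.96%. The 90th percentile of the score was 406 for members on 3R, against 372 in the rest, whereas it was 279 on 2L (rest 373), 289 on 3L (rest 352) and 317 on X (rest 360.0). Strong peaks, taken as scores of 200 or more, stood at 32.0 per Mb among the members on 3R, against 22.3 in the rest of 3R. They stood at 12.9 per Mb among members on 2L, against 20.1 in the rest, at 9.02 on X, against 20.7, and at 3.50 on 3L, against 21.8. These densities follow the number of peaks as well as their scores. As a share of peaks, strong ones made up 39.3% of members on 3R, against 37.0% of the rest, 30.8% on 2L, against 36.3%, 32.1% on X, against 32.4%, and 25% on 3L, against 35.8%.

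**Figure D3:**
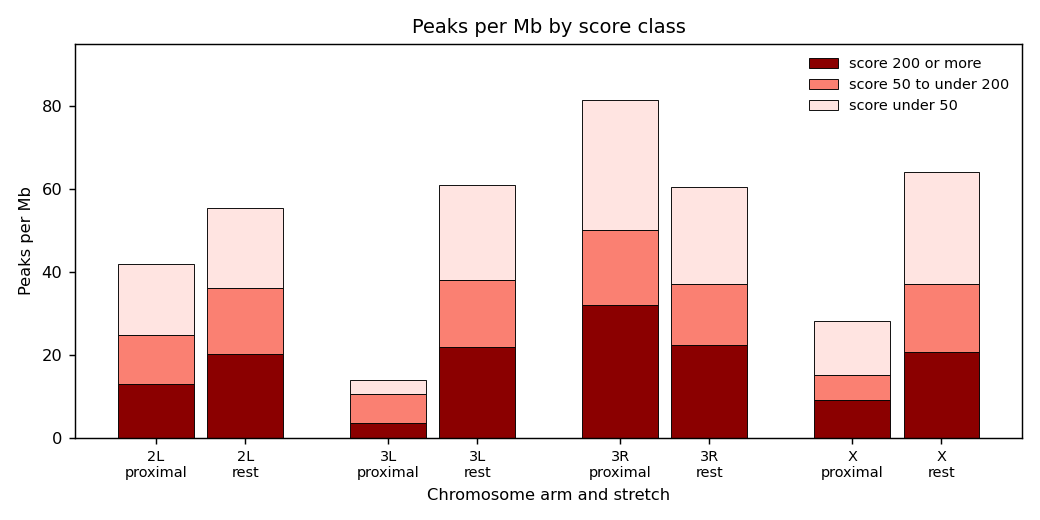
Peaks per Mb in 3 classes of score, stacked, for the proximal 2 Mb and the rest of each arm. On 3L strong peaks (200 or more) stand at 3.50 per Mb in the proximal stretch and 21.8 in the rest, and on 3R at 32.0 and 22.3.

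The share of weak peaks, with scores under 50, varied among the stretches. They made up 7 of 28 members on 3L (25%), against 37.7% of the rest. On 3L this share was below that of all 11 steps (26.3% to 47.5%). Scores under 20 were found in 2 of 28 members of 3L (7.14%), against 23.8% of the rest. On 2L weak peaks made up 32 of 78 members (41.0%), against 34.8%, above all 10 steps of that arm (28.1% to 39.3%). On X the shares were 46.4% and 42.1%, and on 3R 38.7% and 38.5%. No interval was computed for these shares, and on 3L and 2L the margin to the nearest step was small. By these values, both the lowest and the highest weak share relative to their own arm occurred in sparse stretches.

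The median width of members was 1123 bp on 2L (875 to 1350), against 1325 bp in the rest (1226 to 1432). It was 936 bp on X (679 to 1340), against 1224 bp (1127 to 1301), and 1247 bp on 3L (943 to 1621), against 1327 bp (1251 to 1390). On 3R it was 1457 bp (1129 to 1680), against 1404 bp (1305 to 1481). On 2L and X the members' median lay below those of all 10 steps of the arm, the lowest of which were 1127 bp on 2L and 1100 bp on X, although on 2L by a few base pairs and on both arms with an interval that included the value of the rest. Width is tied to score in this list, with a Spearman's rho of 0.865 over the 325 members and 0.879 over the rest, both values coming from the same peak call. At scores of 200 to under 300, members had a median width of 1757 bp on 2L (18 peaks), against 2057 bp in the rest, and 2180 bp on X (11 peaks), against 2101 bp. Over all 4 arms the medians in that class were 1892 bp for 58 members and 2130 bp for 892 peaks of the rest, and at 300 or more they were 2422 bp for 55 members and 2831 bp for 1023 peaks. Of these 55 members 40 lay on 3R, where the medians were 2891.5 bp and 2913 bp. At 100 to under 200 the medians over the 4 arms were 1584 bp and 1641 bp. At 50 to under 100 members were the wider, with 1262 bp, against 1146 bp. No interval was computed for medians within score classes. Peaks of 5 kb or more numbered 10 among the members and made up 3.08% of members and 4.32% of the rest. On 3R they numbered 8, or 4.91% of its members, against 5.43% of the rest of 3R. The 2L and X stretches held 1 each, or 1.28% on 2L, against 4.21%, and 1.79% on X, against 3.83%. On 3L they were 0 of 28 members, against 3.63% of the rest.

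**Figure D4:**
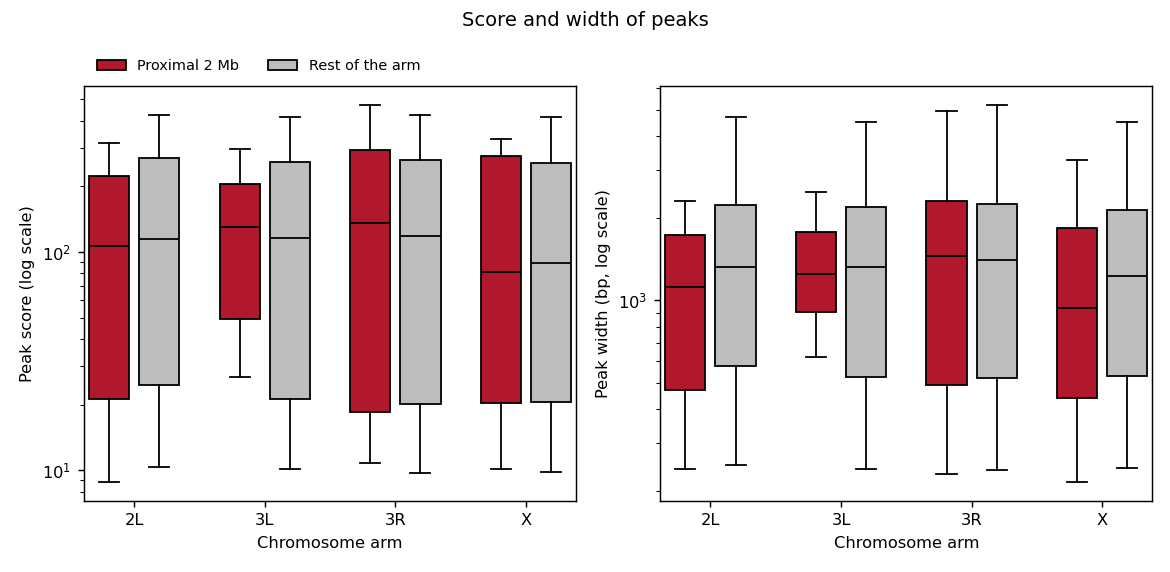
Peak score (left) and peak width in bp (right), on log scales, for the proximal 2 Mb (red) and the rest of each arm (grey). Boxes span the quartiles with the median as a line, and whiskers run from the 5th to the 95th percentile; the boxes of both sides overlap on each arm, and the upper whisker of 2L is lower in the proximal stretch.

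Gaps between neighbours separated the arms in another way. On X the members were packed into short groups with very long empty stretches between them, on 3L short gaps were few, and on 2L and 3R the share of short gaps lay near that of the rest. Gaps of 1 kb or less made up 43.6% of the 55 gaps between X members (30.3 to 57.7), against 47.6% in the rest. The shares were 43.4% on 2L (32.1 to 55.3), against 46.9%, and 44.4% on 3R (36.6 to 52.4), against 46.1%. On 3L 4 of 27 gaps, or 14.8% (4.19 to 33.7), were that short, against 46.3% in the rest and at least 41.8% in each of the 11 steps. With a border at 3 Mb the share on 3L was 36.3%, against 46.2%, and with a border at 1 Mb that on 2L was 26.7%, against 47.2%. With the tandem run kept, it was 54.4% on 2L, against 46.9%. Among peaks at or above the list's median score it was 4.35% on X, against 31.2%. That cutoff left only 12.0 peaks per Mb in the X stretch, and the 4.35% has no interval here. The median gap on 3L was 21.9 kb, against 1.39 kb in the rest, while it was 1.89 kb on X (rest 1.22 kb), 2.29 kb on 2L (rest 1.34 kb) and 1.45 kb on 3R (rest 1.49 kb). Members with no neighbour within 10 kb were 10 of 28 on 3L (35.7%), against 9.74% in the rest, but only 3 of 56 on X (5.36%), against 7.80%.

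Gaps of more than 100 kb between neighbouring peaks took up 79.9% of the X stretch, against 37.0% of the rest of X. They took up 72.3% of the 3L stretch, against 29.3%. On 3R they took up 28.5%, against 33.5%, and on 2L 28.2%, against 39.4%, where the gap that holds the left-out run was dropped. Empty sequence between the border and the outermost member was part of the span but was not counted among these gaps. The limit of 100 kb was chosen after the values were seen. The longest gap between members measured 470.3 kb on X at 21943547 to 22413859, and was longer than any in the rest of X, where the longest was 433 kb. The next gaps on X measured 369 kb and 346 kb. On 3L the longest were 375 kb at 23333353 to 23708119, 305 kb and 289.9 kb. The longest on 2L was 185 kb at 21834520 to 22019508 and on 3R 152 kb at 312967 to 464765, both well under the longest of the rest (486 kb and 360.0 kb).

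**Figure D5:**
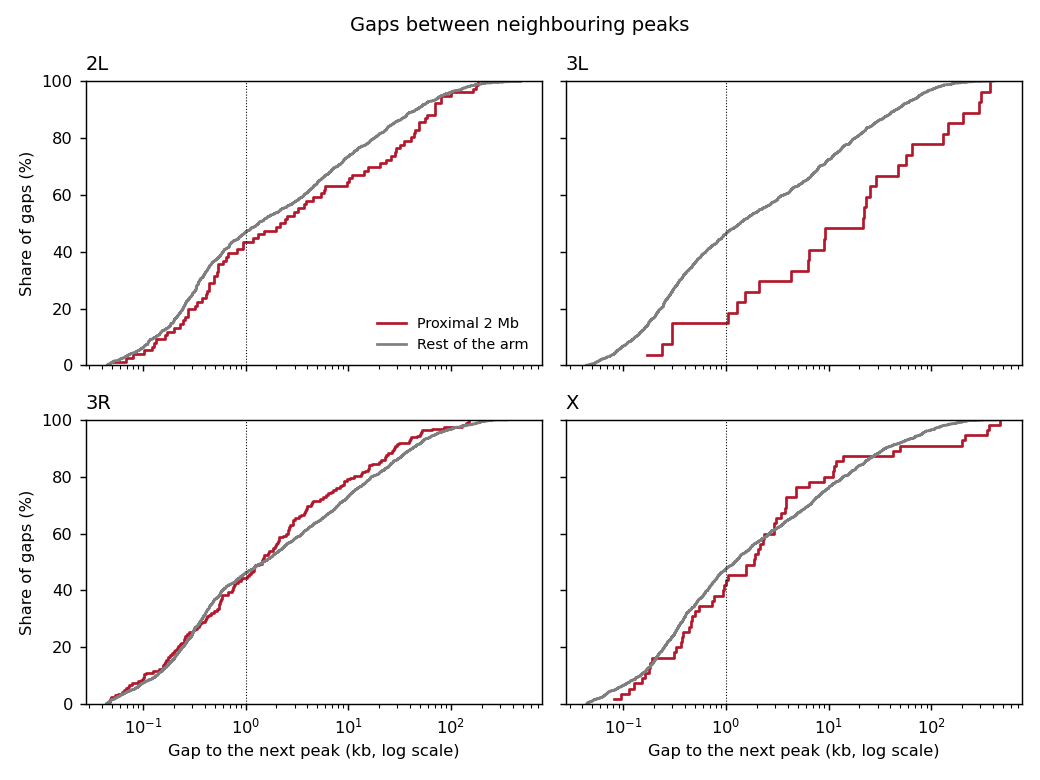
Cumulative share of gaps between neighbouring peaks (%) against gap length (kb, log scale) for the proximal 2 Mb (red) and the rest of the arm (grey); the dotted line marks 1 kb. On 3R the curves stay close, with 75th percentiles of 7.05 kb (red) and 11.5 kb (grey). The red curve lies to the right on 3L and, above the shortest gaps, on 2L (75th percentiles 29.0 and 11.4 kb), and on X it crosses the grey one (4.79 and 9.19 kb) and lies to its right again among the longest gaps.

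Groups of 4 or more peaks joined at distances of 500 bp or less held 20 members, 6.15% of 325 (3.80 to 9.34), against 14.1% (13.2 to 15.1) in the rest of the 4 arms. On 3R they held 8 of 163 members, 4.91% (2.14 to 9.44), against 14.5%, and 11 of the 12 steps of 3R had a larger share. On 2L they held 4 of 78, 5.13% (1.41 to 12.6), against 16.0%, with 8 of 10 steps above. On 3L they held 0 of 28, which by the exact interval allows up to 12.3%, against 13.0% in the rest. On X they held 8 of 56, 14.3% (6.38 to 26.2), against 13.1%. The 3R stretch was thus dense and had a share of close gaps near that of the rest, yet few of its members lay in groups of that size. Groups of 2 to 3 held 51.5% of the 3R members, against 44.9% of the rest of 3R. With groups of 3 or more peaks the contrast was smaller on 3R, where they held 23.3% of members, against 31.2%, and on 2L, with 28.2%, against 32.7%. On 3L they held 10.7%, against 28.9%, and on X the direction turned, with 14.3%, against 28.5%. Among peaks scoring 20 or more, groups of 4 or more held 6.78% of members on 2L, against 8.91%, and 0% on 3R, against 7.66%. With a joining distance of 1 kb they held 21.4% on X, against 28.7%. With a border at 1 Mb, groups of 4 or more held no member of 2L or 3R, against 15.7% and 14.1% in the rest. Single peaks made up 75% of members on 3L, against 41.6% in the rest, and 48.7% on 2L (rest 40.6%), 43.6% on 3R (rest 40.5%) and 42.9% on X (rest 43.1%). The median score of single peaks was 139 for members on 2L and 87.4 for the rest, 152 and 87.4 on 3R, 112 and 77.1 on X, and 97.9 and 93.2 on 3L. In groups of 2 to 3 peaks it was 33.6 for members on 2L and 160 for the rest, 124 and 135 on 3R, and 72.5 and 107 on X, whereas on 3L it was 233 for 7 members and 142 for the rest. Of the weak members on X, 11 of 26 (42.3%) had a strong peak as an immediate neighbour 1 kb or less away, against 22.9% in the rest of X. By contrast, the share was lower among members than in the rest on 2L (18.8% and 27.2%), on 3R (23.8% and 29.6%) and on 3L (0 of 7, and 28.5%). Over the 4 arms it was 25% for members and 27.1% for the rest.

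On 3R every 500 kb of the stretch held members, with 46, 20, 68 and 29 peaks from the centromeric end outward. Of the 163 members, 96 lay between 907793 and 1688194. The first peak of the arm lay at 430 to 2136, scored 170 and covered 1707 bp. The highest score among all members, 582, belonged to a peak 4415 bp wide at 908447 to 912861, and the next, 575, to one at 538368 to 540088 (1721 bp). Of all 325 members, the widest lay at 255680 to 266319, spanned 10640 bp and scored 515, so it lay 261 kb from the end of the assembled arm. The most crowded 100 kb, at 1400001 to 1500000, held 28 peaks over 55.0 kb, of which 13 scored 200 or more (median 151, highest 499.8). The largest groups, of 4 peaks each, lay at 1604955 to 1607942 and at 1610381 to 1623427, with highest scores of 524 and 535. No peak was found between 1688195 and 1830142 or between 1834419 and 1982290, and the member just inside the border, at 1982291 to 1982706, scored 12. The peak just outside, at 2169850 to 2173297, scored 362.

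On 3L the peaks became fewer toward the centromeric end, and the strong ones lay in the outermost part. Successive 500 kb from the centromeric end outward held 2, 3, 7 and 16 peaks, with median scores of 65.8, 32.1, 56.5 and 191. All 7 strong peaks of the stretch lay in the outermost 500 kb. The inner 1 Mb held 5 peaks, and their scores were 143 at 23708120 to 23709714, 11.5 at 23731596 to 23731885, 32.1 at 24021738 to 24022357, 97.9 at 24224640 to 24225728 and 33.6 at 24530418 to 24531531. The last of these closes the arm in the list. The highest scores of the stretch, 504 at 22708081 to 22710473 (2393 bp) and 492 at 22731838 to 22736253 (4416 bp), lay 1822 kb and 1797 kb away from that end, the first being also the member just inside the border. The widest member of 3L, 4456 bp at 22862432 to 22866887, scored 251. The window with the most members, 22800001 to 22900000, held 8, among them the largest group of the arm, 3 peaks at 22868419 to 22874271. The peak just outside the border, at 22465527 to 22465974, scored 20.4.

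On X the 56 members formed 6 islands separated by more than 100 kb, which together spanned 291 kb of the 2.00 Mb. Of these, 4 held 11, 18, 9 and 16 peaks on 90.2, 74.7, 25.9 and 97.0 kb, from the border toward the centromeric end, and the other two were single peaks. The island of 18 peaks, at 21187102 to 21261777, held the highest score of the stretch, 440 at 21256957 to 21259020 (2064 bp). The widest X member, 8412 bp, lay in the same island at 21216341 to 21224752 and scored 297. That peak opened a group of 4 ending at 21227220, whose other scores were 22.7, 11.1 and 8.93. A second group of 4, at 21939780 to 21943546, had a highest score of 284. The second-highest score, 358 over 1924 bp, lay at 20901170 to 20903093. The window with the most members, 21200001 to 21300000, held 15, of which 8 scored under 50. The last peak of the arm, at 22413860 to 22416618, was strong and alone, with a score of 331 over 2759 bp beyond the gap of 470.3 kb. The single peak just inside the border, at 20529191 to 20529808, scored 46.0, and the one just outside, at 20393934 to 20395996, scored 283.

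On 2L the members were spread more evenly, with 15, 16, 16 and 31 peaks in successive 500 kb from the centromeric end outward, where the outer 2 of these steps lose 135 kb between them to the left-out run. Median scores in these steps were 22.1, 155, 36.3 and 166. The highest score, 339 over 2320 bp, lay at 22127769 to 22130088, and the second, 329 over 977 bp, at 22735471 to 22736447, only 233 kb from the end. The widest member covered 6151 bp at 21163555 to 21169705, scored 277 and belonged to the largest group of the stretch, 4 peaks at 21156813 to 21172072. The 100 kb window around it, 21100001 to 21200000, was the most crowded of the arm's members, with 16 peaks over 29.9 kb. The last peak of the arm, at 22968672 to 22968993, was narrow (322 bp) and scored 22.1, although a peak scoring 276 stood at 22959315 to 22961205. The member just inside the border, at 21050045 to 21050463, scored 12.2 and the peak just outside, at 20926548 to 20927774, scored 101.

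Between the inner and the outer 1 Mb of the stretches the scores took different directions. The median score was 33.6 in the inner and 160 in the outer 1 Mb on 3L (5 and 23 peaks), 122 and 41.2 on X (26 and 30 peaks), 114 and 104 on 2L (31 and 47 peaks), and 133 and 135 on 3R (66 and 97 peaks). The inner 1 Mb thus held fewer peaks than the outer on each of the 4 arms, although on X the counts were close. In 500 kb steps from the centromeric end outward, the counts on X (7, 19, 25 and 5) and on 3R (46, 20, 68 and 29) did not rise steadily. On 3L the few peaks of the inner 1 Mb also had the lower median score.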

How the data were processed

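The series holds 2 libraries from H3K4me3 immunoprecipitation and 2 from input DNA of white prepupae. BWA, CASAVA (versions 1.7.0.3 and 1.7.0.2), MACS2 and assembly BDGP5 are named in the submitters' processing notes. Their settings, the pooling of replicates and the use of the inputs are not given in the sources used here. Each peak of the deposited list has a position on FlyBase release 5 and a score, in a unit the authors do not name.

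Width was end minus start plus 1. Sides were assigned by midpoint, spans ran from the border to the first or last peak of the arm (from base 1 for 3R members), and gaps across a border or the left-out run were dropped. The density, median width, median score, share of close gaps and covered share were checked on simulated data, and the share of peaks in groups was not. Members and lists were chosen with earlier results of these data known. Peaks named in the text are, per arm, the pair with the highest scores, the widest, that nearest the centromeric end, those beside the border, the longest gap, the largest joined group and the most crowded 100 kb window; others were named after their values were seen. Genes were not assigned, since release 6 coordinates cannot be set against this list. Scripts ran in Python 3.11.15 with scipy 1.17.1, pandas 2.3.3 and numpy 2.4.6, and figures were drawn with matplotlib 3.10.9.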

Additional observations from a re-analysis of the deposited data

Results flagged for a closer look

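Peaks were also listed on sequence that entered no comparison. The list covers 14 sequences, and 5762 of its 7743 peaks lay on the 4 arms. Beyond the comparisons, only the left-out run, 2LHet, 3LHet, 3RHet and XHet were summarised, and peaks on the other sequences are not described. Items with more than 3 peaks are given first, and no level is known that they should be set against. The tandem run left out on 2L held 26 peaks with a median width of 4362 bp and scores from 12.6 to 297 (median 253), which covered 75.1% of its 135 kb. The heterochromatin sequence 3LHet held 16 peaks (median score 82.9), 3RHet held 8 (median 75.4) and XHet held 4 (median 196). A further 3 lay on 2LHet (median 128, scores 107 to 178). What these peaks represent was not tested.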

How the results depend on the processing

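Ratios of members over the rest of the same arm were recomputed in 158 alternative values for 24 results. The density ratio stayed on its side of 1 in all 29 of its alternatives (0.084 to 0.439 on 3L, 0.409 to 0.701 on X, 0.56 to 0.937 on 2L, 1.07 to 1.44 on 3R), whereas the ratio of median scores changed sides in 12 of 25 and that of median widths in 4 of 25. With a border at 1 Mb the density ratio became 0.56 on 2L, 0.084 on 3L and 1.07 on 3R, the covered share 0.356 on 2L and 0.048 on 3L, the close-gap share 0.565 on 2L, 0 on 3L and 0.729 on 3R, the share in groups 0 on 2L and 3R, and the median score 0.289 on 3L, which leaves 5 peaks there; the covered share on 3R changed sides, to 0.932. With a border at 3 Mb the density ratio was 0.439 on 3L, 1.11 on 3R and 0.701 on X, the covered share 0.425 on 3L and 0.738 on X, and the close-gap share 0.784 on 3L. Keeping the tandem run on 2L brought its density ratio to 0.937, and turned its covered share to 1.04, its median width to 1.05 and its median score to 1.58. Restricting the list to its upper 50% of scores gave a share in groups of 0 on 2L, 3R and X and a close-gap share of 0.139 on X; with scores of 20 or more the share in groups on 3R was 0. With groups of 3 or more peaks it was 0.862 on 2L, 0.747 on 3R and 0.502 on X, where it changed sides. With scores of 20 or more it was 0.761 on 2L and 1.32 on X. A joining distance of 1 kb gave 0.401 on 2L, 0.554 on 3R and 0.747 on X, where it also changed sides. The share in groups thus depends on the size, the score and the joining distance required. Joining peaks gave a width ratio of 0.658 on 3L. Apart from fewer peaks or the added run in these settings, the cause was not tested. No paired analysis was possible because single libraries have no values in the list, and none could be left out for the same reason. Depth is unknown, and its effect could not be measured.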

Other observations

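One island on X, the 9 peaks at 21475151 to 21501016, had an alternating order that was noticed after its values were seen. Its 5 higher peaks scored 141 to 320 and each neighbouring pair of them had a weaker peak between, with scores of 8.93 to 46.0. The higher peaks started 6564, 6090, 6113 and 5504 bp apart, and the middle 3 of them were 945, 927 and 946 bp wide. Whether this order reflects repeated sequence was not tested, since no genome of release 5 was used here.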
